A study of Mus musculus with 16 samples.

Results

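Genes that mark macrophages and antigen-presenting cells, 10 in all, were followed over every array of a mouse muscle data set. They are Lgals3, Cd68, Ptprc, Csf1r, Cd74, H2-Aa, H2-Ab1, Lyz2, C1qa and C1qb. Their probes were taken by the gene name that the array design gives, which yielded 14 probes for the 10 genes, out of 55681 probe names and 34650 gene names. RNA came from gastrocnemius, the large calf muscle, of 3 male wild-type (WT, Eif6+/+) C57BL6 mice and 3 male littermates with 1 functional copy of Eif6 (Het, Eif6+/-), all 8 to 16 weeks old. Eif6 encodes a factor that binds the large ribosomal subunit, and the copy is missing from every cell of the body, blood and immune cells included. No mouse was treated.

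Each mouse gave total RNA of the whole muscle and RNA of its pooled polysomes, separated on sucrose gradients, where transcripts carry several ribosomes. A monosome fraction, where transcripts carry a single ribosome, was profiled for WT mice 1 and 2 and for Het mice 1 and 3, so that 16 arrays in 6 groups were used. Arrays of a genotype that carry the same number are called one mouse here, which the labels do not state. Per the series description, the study itself analysed the whole-muscle and polysome arrays and left the monosome arrays aside. Levels are log2 values of the processed spot signal, quantile-normalized over the 16 arrays, on which a difference of 1 is a doubling of signal. A level is comparable between arrays for 1 probe, not between probes.

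Macrophages live between the muscle fibres, where they clear debris, take up dying cells and signal to other cells. Their colony-stimulating factor receptor keeps them alive, their lysosomes digest what they engulf, and those that present antigen carry peptides to the cell surface on MHC class II molecules. The same cells are the main source of complement C1q in most tissues. Whole muscle is mostly fibre RNA, so these genes report on a minority of the cells. In bulk RNA a smaller number of such cells and less of each RNA per cell cannot be told apart.

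The probes that the results turn on differ in where they lie, and 5 of them are shown here. Positions are given on mouse build mm9, as in the array files, and each sequence is read 5′ to 3′. The probes of 4 genes are given whole, because these genes had the widest spread between mice when polysomes were set against whole muscle. These genes are H2-Aa (chr17:34421285-34421344, minus strand), the complement genes C1qa (chr4:136452409-136452468, minus strand) and C1qb (chr4:136436578-136436637, minus strand), and Lyz2 (chr10:116719175-116719234, minus strand).
H2-Aa probe: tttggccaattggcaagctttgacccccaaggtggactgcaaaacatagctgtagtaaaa
C1qa probe: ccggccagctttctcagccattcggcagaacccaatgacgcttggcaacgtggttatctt
C1qb probe: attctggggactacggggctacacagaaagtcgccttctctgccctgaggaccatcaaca
Lyz2 probe: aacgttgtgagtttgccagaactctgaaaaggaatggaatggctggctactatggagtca
Lgals3 probe, bases 26 to 55: agacatccatttAATAAAgtctcatgctga

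The capitals in the Lgals3 probe (chr14:48005414-48005473, plus strand) mark AATAAA, the letters of the common polyadenylation signal. They occurred in 3 of the 12 tested member probes, those of Lgals3 and both of H2-Ab1, and in 2754 of all 20251 tested probes (13.6%). Lyz2 has a close relative, Lyz1, whose transcript is nearly identical in parts, so cross-hybridisation between them cannot be set aside and Lyz2 values are uncertain in that respect.

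H2-Ab1 was read by a pair of probes whose targets overlap by 51 bases and differ at 1 of them, marked in capitals below. Counted from the 5′ end of the first probe, the substitution is T51C. The first probe lies at chr17:34406296-34406355 and the second at chr17:34406305-34406363, both on the plus strand.
H2-Ab1 first probe, bases 33 to 60: attacaaataaacgagacTcagactctg
H2-Ab1 second probe, bases 24 to 51: attacaaataaacgagacCcagactctg

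Despite that base, the 2 probes gave close to the same differences. Het minus WT was -0.63 and -0.64 in whole muscle and -0.72 by both in polysomes, and polysome minus whole muscle was 1.01 and 0.93.

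Depth and array quality differed between samples. The 75th percentile of the processed signal ran from 12.7 to 150 over the arrays, and all 3 Het whole-muscle arrays (13.5 to 33) were dimmer than the 3 WT ones (42.3 to 150). Polysome and monosome arrays of WT mouse 2 stood apart: the median difference between the probe nearer the 5′ end and the probe nearer the 3′ end of a gene was 0.22 and 0.42 on them and between -1.34 and -0.87 on the other 14 arrays (1378 probe pairs). Eif6 itself was lower in Het in whole muscle (8.33 ± 0.11 against 9.26 ± 0.36, mean log2 level ± SD, n = 3 per genotype), in polysomes (8.99 ± 0.12 against 10.31 ± 0.38, n = 3) and in monosomes (7.94 ± 0.17 against 9.76 ± 0.57, n = 2), in each case with no overlap, so the labels held.

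Macrophage identity was checked on genes outside the 10. Emr1, which encodes the F4/80 antigen, was well above background on 15 of 16 arrays, Itgam on 16 and the mannose receptor Mrc1 on 14, while the haemoglobin scavenger receptor Cd163 was so on 0. Presence is all that these counts show: Itgam did not follow the 10 genes, with whole-muscle levels of 10.49, 10.79 and 10.23 in WT mice 1 to 3 and 10.91, 10.61 and 11.05 in Het mice 1 to 3. Muscle markers Acta1 and Ckm passed this mark on all 16 arrays. The T cell gene Cd3e was so on 16 arrays and the neutrophil gene S100a8 on 5.

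Of the 10 genes, 9 had a probe that passed the filter, which asked that all arrays of 1 or more groups have the probe well above background. Ptprc, the pan-leukocyte phosphatase CD45, did not: its probe was well above background on 2 arrays, whole muscle and monosomes of WT mouse 1. The gene is kept in the descriptions, and its levels are near background elsewhere. Cd68 had a second probe that was not tested either.

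The genes were chosen by their Het against WT differences in whole muscle and in polysomes, which were known when the list was drawn up. Those differences, and the polysome loading built from them, are therefore given as descriptions without a test. The comparisons of monosomes and of RNA kinds were not used to choose the genes, and these were tested with limma and Benjamini-Hochberg adjustment over all 20251 probes.

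One order of the mice ran through the whole list. In whole muscle, WT mice 1 and 3 lay above WT mouse 2 and all 3 Het mice for 10 of 10 genes, an order that 11.5% of all tested probes showed. In polysomes the same order held for 9 of 10 genes, H2-Aa being the exception, against 7.11% of probes. Both orders together were held by 9 of 10 genes, against 3.02% of probes. WT mouse 2 lay within the range of the Het mice in whole muscle for 6 of the genes, below it for 2 (Cd68 and Csf1r) and above it for 2 (H2-Aa and Lyz2). This order was noticed in the values, is a description, and was not tested. The neutrophil marker S100a8 had the same order with a wider gap. It is 1 gene that did not pass the filter. In the list of 31 other leukocyte genes that holds it, 1 of the 14 tested genes held both orders. S100a8 alone is described next. Its level in WT mice 1 and 3 was 7.79 and 5.07 in whole muscle and 8.40 and 5.18 in polysomes, and 7.42 in monosomes of WT mouse 1. On all other arrays it was between 1.54 and 2.57 and not well above background. Lyz2 is expressed by neutrophils too, and the part of these cells in the values of the 10 genes was not tested.

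**Figure D1:**
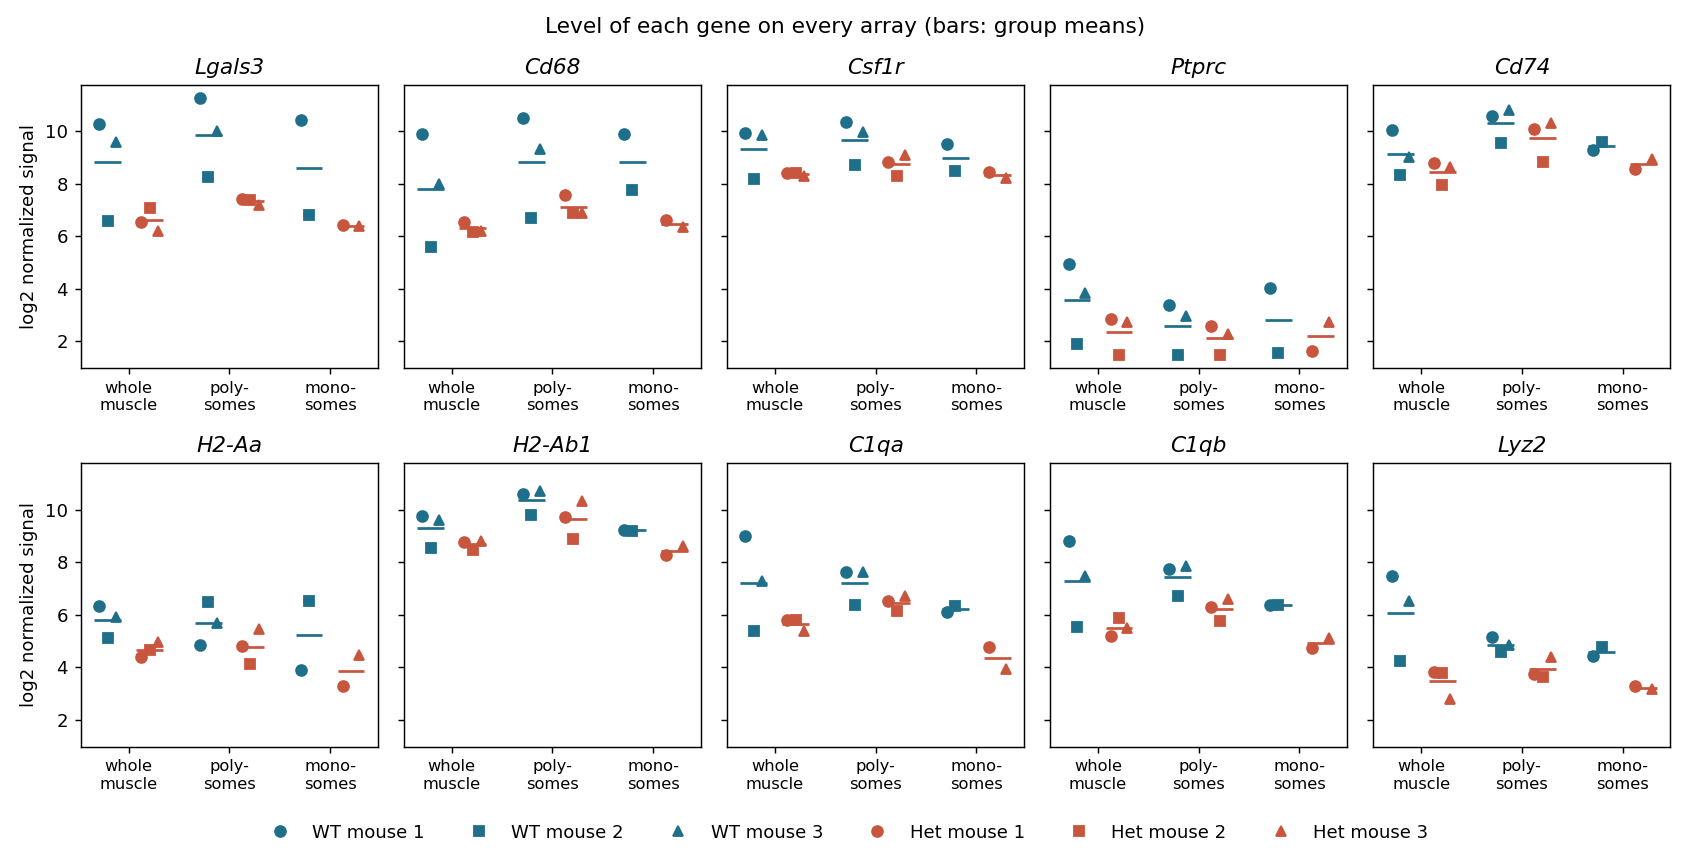
Log2 normalized signal (y axis) of the 10 genes on each of the 16 arrays, by RNA kind (x axis), with WT in blue, Het in red, a symbol for each mouse number and a bar for each group mean. WT mice 1 and 3 lie above the other 4 mice in whole muscle in all 10 panels, and Ptprc lies near background.

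Galectin-3, the product of Lgals3, is a carbohydrate-binding protein that macrophages make in large amounts when they engulf debris or lipid. Its whole-muscle level was 10.26, 6.59 and 9.60 in WT mice 1, 2 and 3 and 6.55, 7.07 and 6.19 in Het mice 1, 2 and 3. WT mouse 2 lay inside the Het range, so the groups overlapped.

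On polysomes Lgals3 stood at 11.27, 8.27 and 9.998 in WT and at 7.40, 7.39 and 7.21 in Het mice. Here the groups did not overlap, and the Het values lay within 0.2 of each other. On monosomes the levels were 10.42 and 6.79 in WT mice 1 and 2, and 6.42 and 6.39 in Het mice 1 and 3.

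The Het minus WT difference in Lgals3 level was -2.22 ± 1.01 (SE from the pooled fit) in whole muscle and -2.51 ± 1.01 in polysomes. The latter is a 5.71-fold lower mean signal and the largest polysome difference of the 10 genes. This polysome difference was -1.80 without WT mouse 1 and -3.30 without WT mouse 2. It was carried by WT mice 1 and 3, and WT mouse 2 exceeded the highest Het mouse on polysomes by less than 1 on the log2 scale.

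Cd68 encodes macrosialin, a glycoprotein of macrophage lysosomes. Its whole-muscle level was 9.88, 5.58 and 7.98 in WT mice 1 to 3 and 6.53, 6.17 and 6.21 in Het mice 1 to 3. WT mouse 2 was the lowest of the 6. On polysomes the levels were 10.49, 6.69 and 9.32 in WT and 7.58, 6.90 and 6.87 in Het mice, again with WT mouse 2 lowest. On monosomes they were 9.90 and 7.78 in WT and 6.62 and 6.34 in Het mice. The mean differences of -1.51 and -1.72 in whole muscle and polysomes therefore came from groups that overlapped, with WT SDs of 2.15 and 1.95 against Het SDs of 0.20 and 0.41 (n = 3 each). These differences were -0.48 and -0.89 without WT mouse 1, and -2.62 and -2.79 without WT mouse 2.

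Csf1r encodes the receptor for macrophage colony-stimulating factor, on which macrophage survival depends. Its level was 9.94, 8.20 and 9.85 in whole muscle of WT mice 1 to 3, and 8.42, 8.40 and 8.30 in Het mice 1 to 3. On polysomes it was 10.34, 8.71 and 9.98 in WT, and 8.84, 8.30 and 9.08 in Het mice. On monosomes it was 9.50 and 8.48 in WT mice 1 and 2, and 8.45 and 8.23 in Het mice 1 and 3. In whole muscle the Het mice were within 0.2 of each other, with WT mouse 2 beside them and the other two WT mice clearly higher.

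The other 2 Csf1r probes were dimmer and repeated this in part. Het minus WT by the chosen probe was -0.95 in whole muscle and -0.94 in polysomes. By a second probe it was -1.75 and 0.01. In whole muscle that probe read 5.82, 3.03 and 5.07 in WT and 2.73, 1.69 and 4.27 in Het mice, again with WT mice 1 and 3 on top. It was well above background on 0 of 3 Het and 2 of 3 WT arrays, so the size of its difference is uncertain. That probe did not keep this order in polysomes. The difference was -0.37 and -0.69 by another probe, the one nearest the 5′ end of the gene. On the latter probe the highest levels were those of the arrays that stood apart, 5.97 for polysomes and 6.08 for monosomes of WT mouse 2.

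Ptprc read 4.94, 1.91 and 3.82 in whole muscle of WT mice 1 to 3, and 2.86, 1.49 and 2.73 in Het mice 1 to 3. On polysomes it read 3.38, 1.46 and 2.96 in WT, and 2.59, 1.48 and 2.26 in Het mice. On monosomes it read 4.04 and 1.57 in WT, and 1.65 and 2.72 in Het mice. WT mouse 1 was the highest in each RNA kind, but apart from its whole-muscle and monosome values none was well above background, so the differences of -1.20, -0.49 and -0.62 have little signal behind them.

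Cd74, H2-Aa and H2-Ab1 make the core of MHC class II presentation. H2-Aa and H2-Ab1 encode the alpha and the beta chain of the peptide-binding dimer, and Cd74 encodes the invariant chain that guides the dimer through the cell until peptide is loaded. H2-Aa and H2-Ab1 are neighbours on chromosome 17.

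Cd74 stood at 10.04, 8.34 and 9.03 in whole muscle of WT mice 1 to 3 and at 8.78, 7.95 and 8.64 in Het mice 1 to 3. On polysomes it stood at 10.59, 9.54 and 10.81 in WT and at 10.10, 8.83 and 10.33 in Het mice, and on monosomes at 9.30 and 9.60 in WT and 8.56 and 8.94 in Het mice. The genotypes overlapped in whole muscle and in polysomes, with differences of -0.68 and -0.56. Leaving out 1 mouse gave -1.08 (without WT mouse 2) to -0.23 (without WT mouse 1) in whole muscle. In polysomes it gave -0.95 (without WT mouse 2) to -0.10 (without Het mouse 2).

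H2-Ab1 was close to Cd74 in form. Its whole-muscle level was 9.77, 8.55 and 9.59 in WT mice 1 to 3 and 8.75, 8.45 and 8.81 in Het mice 1 to 3. Its polysome level was 10.58, 9.78 and 10.72 in WT and 9.72, 8.86 and 10.32 in Het mice. The smallest whole-muscle difference of the 10 genes, -0.63, was found here. On monosomes the levels were 9.22 and 9.20 in WT and 8.27 and 8.61 in Het mice.

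H2-Aa departed from its partner chain. In whole muscle it read 6.34, 5.09 and 5.89 in WT mice 1 to 3 and 4.40, 4.64 and 4.94 in Het mice 1 to 3, and the groups did not overlap. On polysomes it read 4.85, 6.47 and 5.68 in WT and 4.79, 4.12 and 5.43 in Het mice. On monosomes it read 3.88 and 6.53 in WT and 3.27 and 4.45 in Het mice. Its highest levels of all were those of the polysome and monosome arrays of WT mouse 2, the arrays on which 5′ probes were high relative to 3′ probes; whether this bears on H2-Aa was not tested. The probe was well above background on 13 of 16 arrays.

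C1qa and C1qb encode the A and B chains of C1q, which starts the classical complement pathway by binding antibody or dying cells. They lie near each other on chromosome 4. C1qa read 8.99, 5.38 and 7.28 in whole muscle of WT mice 1 to 3 and 5.80, 5.80 and 5.36 in Het mice 1 to 3. C1qb read 8.82, 5.54 and 7.48 in WT and 5.17, 5.86 and 5.49 in Het mice. For both genes WT mice 1 and 3 were well above the rest and WT mouse 2 was within the Het range.

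On polysomes C1qa stood at 7.63, 6.38 and 7.63 in WT and at 6.51, 6.13 and 6.71 in Het mice. C1qb stood at 7.74, 6.71 and 7.84 in WT and at 6.30, 5.76 and 6.58 in Het mice, with no overlap. On monosomes C1qa was 6.08 and 6.31 in WT against 4.78 and 3.93 in Het mice, and C1qb 6.38 and 6.38 against 4.73 and 5.13. The Het minus WT differences were -1.56 for C1qa and -1.77 for C1qb in whole muscle, and -0.76 and -1.22 in polysomes. Of all 36 pairs of tested members, C1qa and C1qb followed each other most closely over the 16 arrays (Pearson r = 0.947).

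Lyz2 encodes lysozyme M, a bacteriolytic enzyme of macrophages and neutrophils. Its whole-muscle level was 7.48, 4.22 and 6.50 in WT mice 1 to 3 and 3.82, 3.76 and 2.78 in Het mice 1 to 3. On polysomes it was 5.16, 4.57 and 4.84 in WT and 3.74, 3.62 and 4.38 in Het mice, and on monosomes 4.40 and 4.76 in WT and 3.29 and 3.15 in Het mice. In no RNA kind did the printed values of the genotypes overlap. The dimmest signal called well above background on the whole-muscle array of Het mouse 2 was 4.64, above the 4.22 of WT mouse 2. On the monosome array of WT mouse 2 it was 5.24, above the 4.76 of Lyz2 there. Separation in whole muscle and monosomes was thus not established.

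None of the 3 Het whole-muscle arrays had Lyz2 well above background, so only a bound on the fold can be given. The mean of the 3 WT arrays was at least 3.68-fold higher, carried by WT mice 1 and 3 (7.48 and 6.50, against 4.22 in WT mouse 2). That bound sets the WT mean against the mean of the higher of the dimmest signal called well above background on each Het array and the probe's own value. The fitted difference was -2.62, and it was -1.91 without WT mouse 1 and -3.54 without WT mouse 2, so that the size rests on which WT mice are counted. In monosomes Het was also not well above background, and 1 of 2 WT arrays was. The WT mean there was 1.58-fold above the Het side set in the same way, which is no lower bound.

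Counted together, all 10 genes had lower mean levels in Het whole muscle, with a median difference of -1.35 and a range from -2.62 to -0.63. Over all tested probes the median was -0.03. Groups that did not overlap, with Het lower, were found for 2 of the 10 genes (Lyz2 and H2-Aa), and for 8.32% of all tested probes. Lyz2 counts here by Het values that were not well above background. Het was higher without overlap for 0 of the 10 and for 5.28% of probes. In polysomes all 10 again had lower means in Het, with a median of -0.91 against 0.04 over all probes. There the groups did not overlap for 3 genes (Lgals3, Lyz2 and C1qb) with Het lower, and for 8.74% of probes. For 0 genes, and for 12.9% of probes, Het was higher without overlap. Large mean differences thus went with few genes that separated the genotypes.

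**Figure D2:**
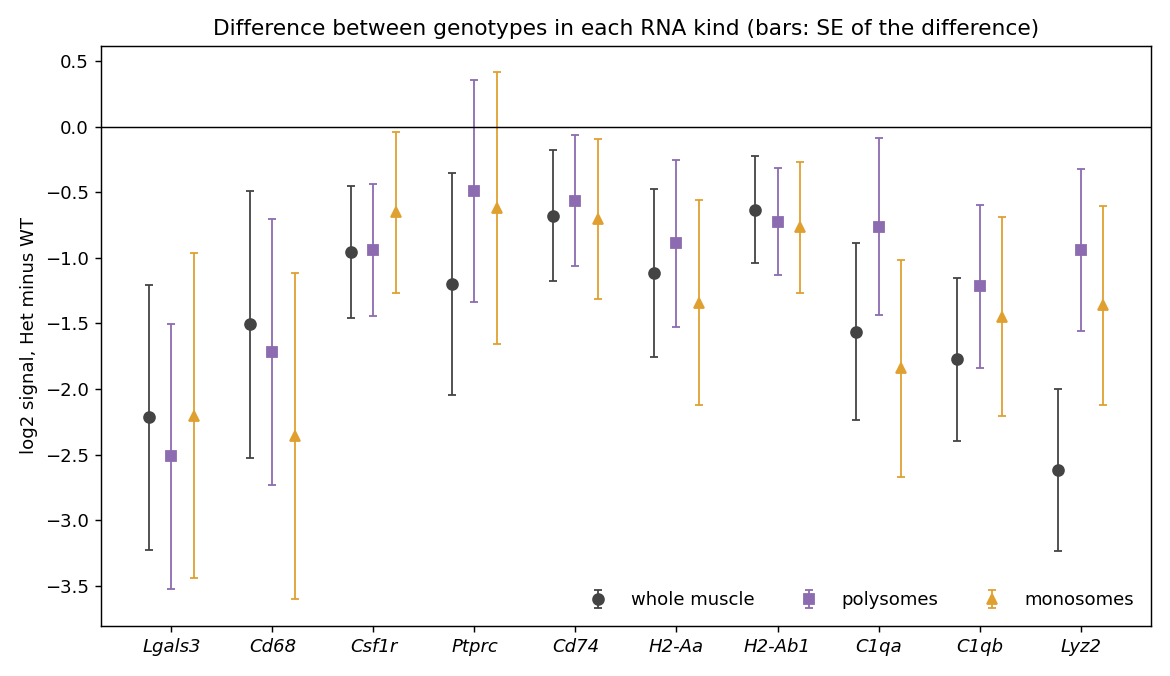
Difference of mean log2 signal, Het minus WT (y axis), for each of the 10 genes (x axis) in whole muscle, polysomes and monosomes, with bars for the SE of the difference from the pooled fit of 16 arrays. All 30 points lie below 0, from -2.62 to -0.49. Each gene has 1 spread pooled over the 6 groups, so its bars are equal in whole muscle and polysomes and longer in monosomes (n = 2).

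The median whole-muscle difference depended on WT mice. Without WT mouse 1 it was -0.66, and without WT mouse 2 it was -2.25. Array brightness moved with the genotypes in whole muscle, and with log2 brightness as a term in the fit the median was -0.27. In polysomes, where WT mouse 2 had the dimmest array (24.1) and the Het arrays (63.1 to 106) lay near or above those of WT mice 1 and 3 (54.7 and 66.1), the same term gave -1.25. The part of brightness in the differences was not tested. WT mice 1 and 3 were on different slides in both RNA kinds. Within slides 1 and 2 the median difference was -1.71 and -1.26 in whole muscle and -0.78 and -1.22 in polysomes.

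Polysome loading, the polysome minus whole-muscle value of each mouse, asks whether ribosome occupancy shifted beyond the RNA level. Het minus WT loading had a median of 0.17 over the 10 genes, against 0.16 over all probes, and ranged from -0.30 for Lgals3 to 1.68 for Lyz2. The median was -0.13 without WT mouse 1, 0.55 without WT mouse 2 and 0.59 with log2 brightness as a term. For 0 of the 10 genes did the genotypes separate, where 11.9% of all probes had lower and 13.4% higher loading in Het without overlap. The 2 extremes differ in origin: Lgals3 loading was 1.01, 1.68 and 0.39 in WT and 0.86, 0.32 and 1.02 in Het mice, whereas for Lyz2 it was -2.32, 0.34 and -1.66 in WT and -0.08, -0.14 and 1.60 in Het mice, and Lyz2 lacked signal above background in the Het whole-muscle arrays.

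The monosome arrays gave a comparison of genotypes that had not served to choose the genes, though it reused 4 of the same mice and so is no independent set of animals. All 10 genes had lower means in Het, with a median difference of -1.35 against 0.10 over all probes. The sign held for 9 of them on leaving out any mouse, and for Ptprc, near background, it turned to 0.61 without WT mouse 1. The groups did not overlap for 8 of them (all but H2-Aa and Ptprc), for Lyz2 by values near background. Of all probes 23.7% showed this pattern with 2 arrays against 2. The opposite, Het higher without overlap, was found for 0 of the 10 and for 26.8% of probes. By limma with Benjamini-Hochberg adjustment, 0 of the 9 tested genes passed an adjusted p of 0.05, as did 0.104% of all probes in the direction of lower Het levels.

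The lowest adjusted p was that of C1qa (-1.84 ± 0.83 SE, limma adjusted p = 0.144, unadjusted p = 0.0444), the 1 gene with an unadjusted p under 0.05, where 13.1% of all probes had one in the direction of lower and 19.8% in that of higher Het levels. For Cd68 the difference was -2.36 ± 1.25 (limma adjusted p = 0.191) and for Lgals3 -2.20 ± 1.24 (limma adjusted p = 0.213). The highest adjusted p was that of Csf1r, 0.443. WT mouse 1 was highest for 6 of 10 genes, against 17.4% of all probes, but for C1qb and H2-Ab1 the values of the WT mice were nearly tied (6.378 against 6.376 and 9.219 against 9.196). Without WT mouse 2, whose array stood apart, Lgals3 passed (-4.02, limma adjusted p = 0.0273), as did 0.0593% of all probes with lower Het levels, but without WT mouse 1 it was -0.39 (limma adjusted p = 0.761). Without WT mouse 2 H2-Aa was -0.02, but without WT mouse 1, H2-Aa (-2.66, limma adjusted p = 0.00707) and C1qa (-1.96, limma adjusted p = 0.0477) passed. In that fit 21.1% of all probes were called lower in Het, against 2 of the 9 tested genes. In each of these fits a lone WT monosome array is taken to vary like the other groups.

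Polysome against whole-muscle RNA within each mouse showed which of the transcripts were most associated with polysomes in both genotypes together. Cd74, H2-Ab1, Cd68 and Lgals3 were higher on polysomes, by 0.88 to 1.24 on the log2 scale, and these 4 of 9 tested genes passed an adjusted p of 0.05 in limma, as did 13.1% of all probes in that direction. None of the 9 was called lower, against 11.6% of probes. At the study's threshold, an absolute log2 difference above 1 with an unadjusted p under 0.05, limma called 2 of the 9 higher (5.23% of probes) and 0 lower (6.81%). The median over the 10 genes was 0.41, against 0.10 over all probes, and it was 0.74 without WT mouse 1 and 0.24 without WT mouse 2.

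Cd74 led with a polysome minus whole-muscle difference of 1.24 ± 0.21 (limma adjusted p = 0.00705), a 2.36-fold higher signal on polysomes. The 6 mice gave 0.55, 1.2 and 1.78 in WT and 1.31, 0.88 and 1.69 in Het, so the sign was shared by all of them, as it was for 4 of the 10 genes and for 15.8% of probes. For H2-Ab1 the mice gave 0.81, 1.22 and 1.13 in WT and 0.97, 0.41 and 1.51 in Het, with a mean of 1.01 ± 0.18 (limma adjusted p = 0.00945).

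Cd68 gave 0.61, 1.11 and 1.34 in WT and 1.05, 0.72 and 0.66 in Het, a mean of 0.91 ± 0.16 (limma adjusted p = 0.0085). Lgals3 had a mean of 0.88 ± 0.21 (limma adjusted p = 0.0223), and its 6 differences, given above as its loading, were all above 0. The Lgals3 call was the least secure. Its limma adjusted p was 0.0782 without Het mouse 1, 0.0833 without Het mouse 3 and 0.0536 without WT mouse 1. With log2 brightness as a term Cd68 stood at an adjusted p of 0.0504 in limma. In a fit that did not pair the arrays of a mouse, Cd68 (limma adjusted p = 0.46) and Lgals3 (0.477) also fell short, while Cd74 (0.0317) and H2-Ab1 (0.0322) passed.

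**Figure D3:**
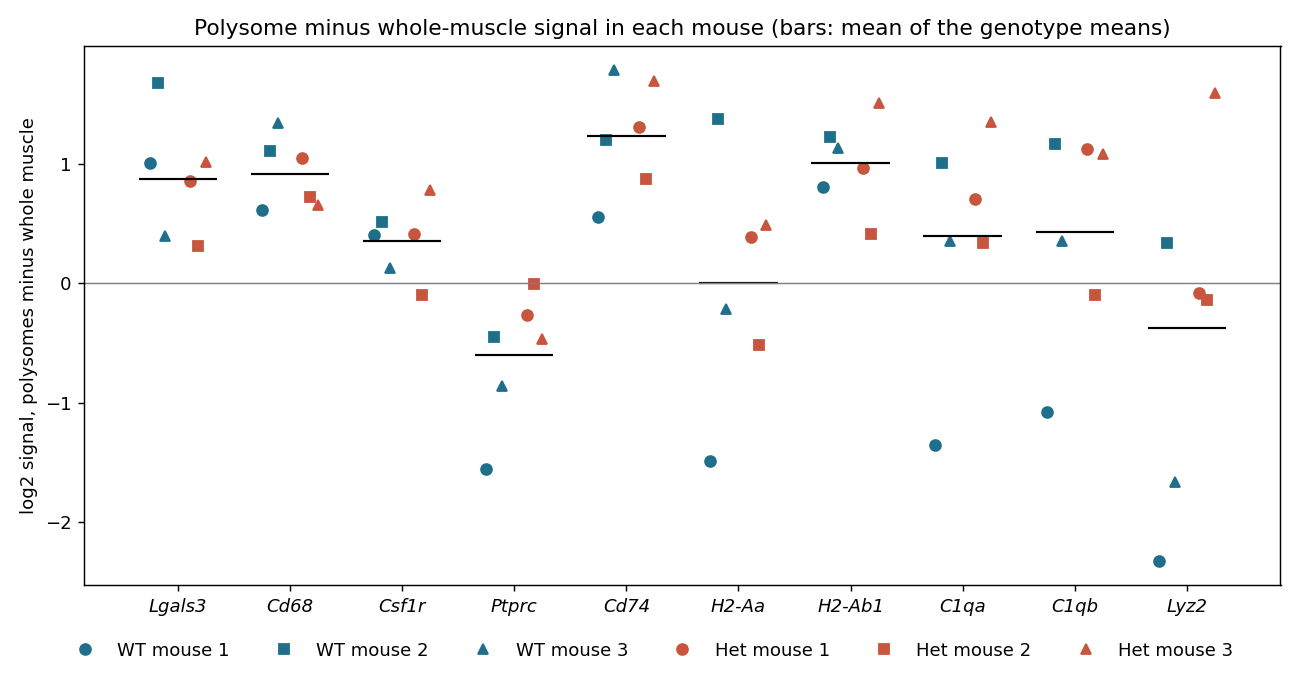
Log2 polysome signal minus log2 whole-muscle signal in each of the 6 mice (y axis) for the 10 genes (x axis), with WT in blue, Het in red and a bar for the mean of the genotype means. All 6 mice lie above 0 for Lgals3, Cd68, Cd74 and H2-Ab1, and WT mouse 1 lies at -1.08 or below for Ptprc, H2-Aa, C1qa, C1qb and Lyz2.

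The other tested genes did not pass. Csf1r had a mean of 0.36 ± 0.17 (limma adjusted p = 0.162), with 5 of 6 mice above 0. C1qa averaged 0.40 ± 0.31 and C1qb 0.43 ± 0.32, H2-Aa 0.01 ± 0.36 and Lyz2 -0.38 ± 0.39, with limma adjusted p of 0.383, 0.356, 0.992 and 0.505. The mice differed widely for the last 4. In WT mouse 1 the polysome minus whole-muscle difference was -1.35 for C1qa, -1.08 for C1qb, -1.49 for H2-Aa and -2.32 for Lyz2, whereas in WT mouse 2 it was 1.005, 1.17, 1.38 and 0.34. Ptprc was lower on polysomes in every mouse, from -1.56 to -0.01, at levels near background.

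The probes of the 4 genes with this spread are those printed whole above. They lack AATAAA, as do those of Cd68 and Cd74, which were called higher on polysomes, and of Csf1r. Among all tested probes that hold these letters, 17.7% were called higher on polysomes, and among those that do not, 12.4%. C1qc, which encodes the C chain of C1q, had a probe that passed the background mark on every one of the 16 arrays and was higher on polysomes (1.27, limma adjusted p = 0.00405), unlike C1qa and C1qb. In the same way H2-Eb1, which encodes another class II beta chain, passed (1.02, limma adjusted p = 0.00908) as H2-Ab1 did and H2-Aa did not. Whether these differences lie in the probes or in the transcripts was not tested.

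Monosome against whole-muscle RNA could be set out for 4 mice. The median over the 10 genes was -0.37, against -0.10 over all probes, and 7 of 10 were lower on monosomes. The sign of this median was not stable: it was 0.18 without WT mouse 1, -0.60 without WT mouse 2 and 0.14 with log2 brightness as a term. No gene passed an adjusted p of 0.05 in limma, nor an unadjusted one, and 0% of all probes passed the adjusted threshold in either direction, while 11.8% of probes had an unadjusted p under 0.05 in the direction of lower monosome levels. The 2 WT mice went opposite ways for 7 of the 10 genes, among them C1qa (-2.91 in mouse 1 and 0.94 in mouse 2) and Lyz2 (-3.08 and 0.53).

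Polysomes against monosomes, in the same 4 mice, had 9 of 10 genes higher on polysomes, with a median of 0.94 against 0.17 over all probes. Again 0% of probes passed the adjusted threshold in limma. Unadjusted p values under 0.05 in that direction were found for 6 of the 9 tested genes and for 24.6% of all probes. They were H2-Ab1 (1.28 ± 0.24, limma adjusted p = 0.0551, equal to the lowest of all probes), Lgals3 (1.03 ± 0.23), C1qa (1.53 ± 0.36), C1qb (1.18 ± 0.26), Cd74 (1.04 ± 0.30) and H2-Aa (0.85 ± 0.28), with limma adjusted p from 0.0551 to 0.0922. C1qa gave 1.55 and 0.07 in WT mice 1 and 2 and 1.74 and 2.78 in Het mice 1 and 3, so that WT mouse 2 stood apart here too. Of the 10 genes, 5 were higher on polysomes in all 4 mice (31% of probes). At the study's threshold limma called 5 of the 9 higher (13.8% of probes) and 0 lower (8.25%). Without WT mouse 2 all 6 (and 19% of all probes) passed the adjusted threshold, and without WT mouse 1 all but H2-Aa did (and 31.9% of probes), each time with 1 WT mouse left, which is taken to vary like the Het mice. Without Het mouse 1 or Het mouse 3 none passed, with limma adjusted p from 0.323 to 0.471 for these 6 genes.

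The order of the 6 groups followed from these parts. WT polysomes had the highest mean for Lgals3, Csf1r, Cd74, H2-Ab1, C1qa and C1qb, WT whole muscle for H2-Aa, Lyz2 and Ptprc, and WT monosomes for Cd68. Het monosomes or Het whole muscle had the lowest mean for every gene but Ptprc, for which it was Het polysomes. Most neighbours in this order overlapped in their arrays. Those that did not were Het polysomes above the next Het group for Lgals3 and Cd68, WT monosomes above Het whole muscle for H2-Ab1 and C1qa, WT monosomes above Het polysomes for Lyz2, and Het whole muscle above Het monosomes for C1qa and C1qb.

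The genes varied together across arrays. Over the 36 pairs of the 9 tested genes, Pearson r across the 16 arrays had a median of 0.72 and ran from 0.20 (Cd68 with H2-Aa) to 0.947. The arrays share mice and brightness, so r is a description. C1qb was closest to the mean of the others (r = 0.969), followed by Csf1r (0.927) and C1qa (0.908), and H2-Aa was farthest (0.485). Among genes outside the list, those whose levels most resembled the mean of the centred members were Grn (r = 0.925), which encodes the lysosomal and secreted protein progranulin, Hexa (0.917), which encodes a lysosomal hexosaminidase subunit, a probe without a gene name (0.912), and Ncf4 (0.903) and Cyba (0.901), which encode parts of the phagocyte oxidase.

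Other macrophage genes were read from a fixed list of 30, of which 19 were tested. In Het 17 of the 19 had lower means in whole muscle (median -1.18), 17 in polysomes (-1.02) and 17 in monosomes (-1.42), and 13 of 19 held the order with WT mice 1 and 3 on top in both whole muscle and polysomes. In the monosome comparison 0 were called. On polysomes against whole muscle, 5 of 19 were called higher and 0 lower, against 13.1% and 11.6% of all probes. The largest were Laptm5 (1.11, limma adjusted p = 0.0205), a lysosomal membrane protein of leukocytes, and Trem2 (1.07, 0.0284), a lipid-sensing receptor. Coro1a (1.04, 0.00907), an actin-binding protein of leukocytes, came next.

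Of the remaining class II pathway list, 10 of 19 genes were tested. In whole muscle 8 had lower means in Het (median -0.87) and in polysomes 8 (-0.64), and 6 of 10 held the order of mice. On polysomes against whole muscle 3 of 10 were called higher, against 13.1% of all probes. They were H2-DMb1 (1.44, limma adjusted p = 0.00367), which helps to load peptide, H2-Eb1 and the protease Lgmn (0.70, 0.0198). H2-DMa, the partner of H2-DMb1, was well above background on 7 arrays and was not tested. In monosomes 7 of the 10 class II genes had lower means in Het (median -0.19). Class I presentation genes had median genotype differences of -0.25 in whole muscle, -0.07 in polysomes and -0.47 in monosomes (12 of 15 lower), and 1 of 15 held the order, while 9 of 15 were called higher on polysomes.

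Complement genes other than C1qa and C1qb had a median Het minus WT difference of -0.28 in whole muscle and -0.40 in polysomes (16 tested of 22), and 5 of 16 held the order of mice. Of these, 10 of 16 were called higher on polysomes against whole muscle, against 13.1% of all probes. They were led by Cfd (1.59, limma adjusted p = 0.00211), the fat-derived factor D, and Cfp (1.38, 0.00319), properdin. Of the ligands and partners of Csf1r, 3 of 10 were called higher on polysomes, Il34 (1.19, limma adjusted p = 0.00296), Cebpb (0.93, 0.00754) and Csf1 (0.69, 0.041), and their genotype medians were -0.05 in whole muscle and -0.15 in polysomes. Of 6 other galectins tested, Lgals1 was called higher (1.18, limma adjusted p = 0.00259) and Lgalsl lower (-1.25, 0.00352). These galectin counts lay near the shares of all probes, 13.1% higher and 11.6% lower.

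Lysosomal genes shared part of the pattern. In whole muscle 18 of 19 had lower means in Het (median -0.43), in polysomes 11 of 19 (-0.08), and 9 of 19 held the order of mice. On polysomes against whole muscle 9 of 19 were called higher, against 13.1% of all probes. Ctsd (1.25, limma adjusted p = 0.0037) and Grn (1.08, 0.00843) were among them.

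Lists for other cells moved in part with the same mice. Fibroblast and matrix genes had lower Het means for 15 of 16 genes in whole muscle (median -0.56) and held the order of mice for 8 of 16. Other leukocyte genes were lower for 11 of 14 (-0.42) and held it for 1, endothelial genes for 11 of 14 (-0.20) and held it for 0, and adipocyte genes for 5 of 8 (-0.07) and held it for 1. Erythroid genes were lower in Het in whole muscle for 2 of 8 (median 0.11) and in polysomes for 8 of 8 (-1.06), and held the order for 0 of 8. Their mean polysome level was highest on the WT mouse 2 array that stood apart (11.51, against 10.60 and 10.67 in WT mice 1 and 3). Myofibre genes had lower means for 12 of 22 in whole muscle (-0.09) and for 4 of 22 in polysomes (0.33), and held it for 0 of 22. On polysomes against whole muscle, 13.1% of all probes were called higher and 11.6% lower, and some of these lists exceeded the share called higher. Adipocyte genes were called higher for 6 of 8 (median difference 0.81), endothelial genes for 7 of 14 (0.59), fibroblast and matrix genes for 7 of 16 (0.65, with 1 called lower), other leukocyte genes for 3 of 14 (0.39) and erythroid genes for 1 of 8 (0.55). Of the myofibre genes 2 of 22 were called higher and 3 lower, with lower values for 15 (-0.20). The erythroid and myofibre counts lay near the shares of all probes. The part of these cells in the differences was not tested.

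**Figure D4:**
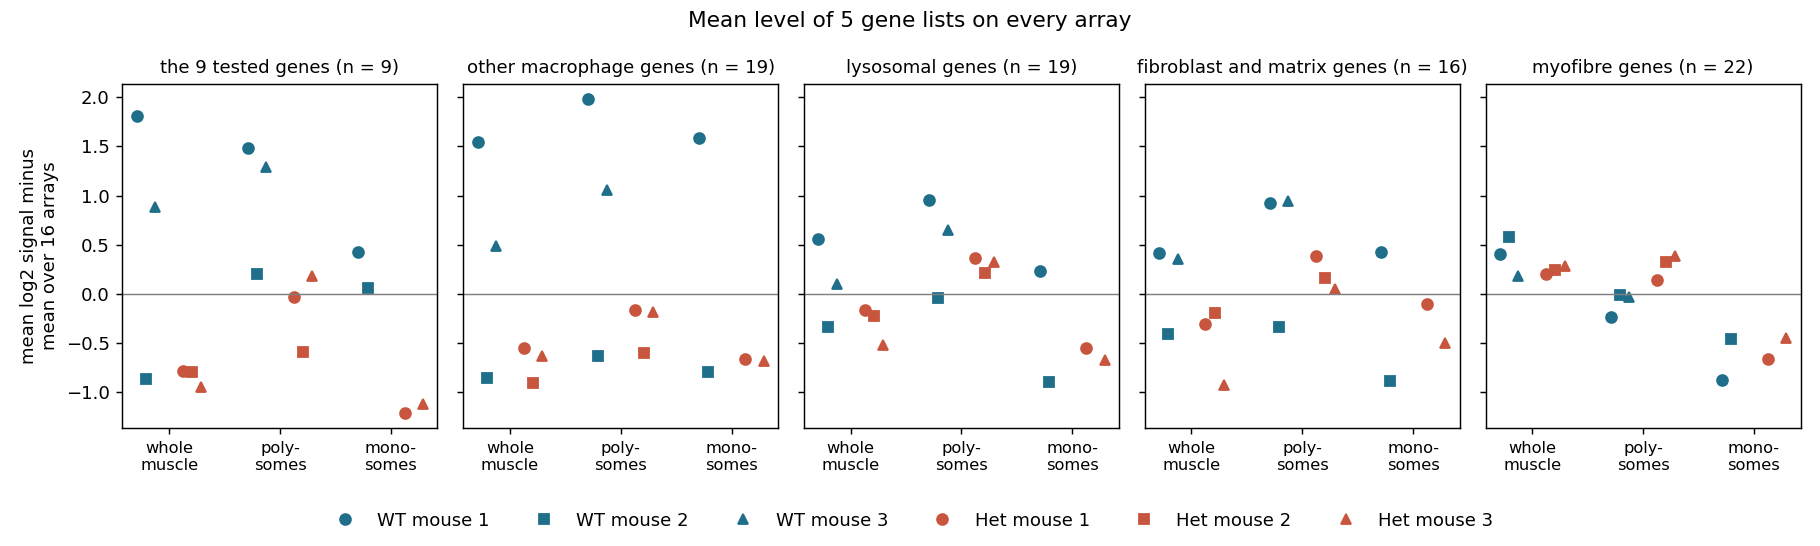
Mean log2 signal of a gene list on each array minus its mean over the 16 arrays (y axis), by RNA kind (x axis), for the 9 tested genes, other macrophage, lysosomal, fibroblast and matrix, and myofibre genes. WT mice 1 and 3 lie above the other mice in whole muscle and polysomes in the first 4 panels and not in the myofibre panel.

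Promoter sequence was in the RefSeq table (GRCm38.p6) for 6 of the 10 genes. The 250 bases before the start are shown for H2-Aa and C1qb, as examples of the class II and the C1q genes. In H2-Aa (chr17:34287824-34288073, minus strand) the capitals mark CTGATTGG, letters of the Y box known from class II promoters.
H2-Aa promoter: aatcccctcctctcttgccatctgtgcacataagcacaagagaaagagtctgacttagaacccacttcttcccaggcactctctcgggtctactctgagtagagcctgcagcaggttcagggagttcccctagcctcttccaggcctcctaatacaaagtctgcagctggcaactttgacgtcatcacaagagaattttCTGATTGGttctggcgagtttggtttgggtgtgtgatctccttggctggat

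In C1qb (chr4:136886201-136886450, minus strand) they mark GAGGAA, a core that Ets factors such as the myeloid regulator PU.1 are known to bind.
C1qb promoter: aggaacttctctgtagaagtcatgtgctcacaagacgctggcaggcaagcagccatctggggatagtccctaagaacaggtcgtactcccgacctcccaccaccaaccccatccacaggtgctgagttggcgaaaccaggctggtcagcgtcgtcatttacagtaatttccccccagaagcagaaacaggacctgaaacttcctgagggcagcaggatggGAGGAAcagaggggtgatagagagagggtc

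Searched on both strands of the 250 bases, CTGATTGG was in 3.83% of 32851 promoters and, of the 6 genes, in H2-Aa alone, and also in that of H2-Eb1. GAGGAA was in 23.3% of promoters and in those of C1qb, Cd68 and Ptprc, and also in that of C1qc. A match describes letters in a window and says nothing of binding in these muscles.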

How the data were processed

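Scanner output of 1-colour Agilent arrays with probes of 60 bases, which the authors produced with Feature Extraction 11.0.1.1 and deposited, holds spot intensities, of which the background-subtracted processed signal was used. The authors' value table holds log2 values that rank as the raw median signal of each array. Outlier-marked spots were dropped, spots of a probe were averaged on the log2 scale, and the 16 arrays were quantile-normalized together. A probe was tested if all arrays of 1 or more groups had it well above background and its values were complete (20251 probes, 67 incomplete ones left out). Each gene was named by its brightest tested probe. Limma 3.58.1 in R 4.3.3 fitted 6 groups, or the per-mouse differences with genotype as the term, testing the mean of the genotype means, and p values were adjusted by Benjamini-Hochberg over all tested probes. The fits were tested on simulated data. SDs and SEs measure the spread between arrays, whose number limits the precision.

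Arrays of 1 replicate number within a genotype were paired because, per the series description, every RNA kind was taken from each animal. No label states that equal numbers mark the same animal, so the pairing is an assumption. Deviations from the group means of paired arrays correlated by 0.05 to 0.48 for polysomes and whole muscle, 0.03 to 0.33 for monosomes and whole muscle, and 0.35 to 0.66 for polysomes and monosomes. The rule for named genes was to give all 10 genes, at most the 3 largest called differences of a list, C1qc, H2-Eb1 and H2-DMa, and the 5 gene names most like the members. The members, lists and rules were chosen with earlier results of these data known. Alternatives were other scaling (75th percentile), background correction (normexp, offset 50), the authors' table, filters, the mean over probes, slide, brightness, pairing, the methods' t-test, the study's threshold (absolute log2 difference above 1 and p under 0.05), normalization of the 12 whole-muscle and polysome arrays alone, and leaving out each mouse. Sequences came from the scanner files and RefSeq promoters.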

Additional observations from a re-analysis of the deposited data

How the results depend on the processing

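The median Het minus WT differences of the 10 genes stayed below 0 in whole muscle, polysomes and monosomes under every alternative run. Leaving out 1 mouse gave -2.25 to -0.66 in whole muscle, -1.14 to -0.66 in polysomes and -1.35 to -1.004 in monosomes, and with array brightness as a term the whole-muscle median was -0.27. The monosome median was -0.58 with normexp background correction, -0.66 with the authors' log2 table and -0.96 within slide 2. The spread between the highest and lowest group mean was 1.27 with normexp.

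Without the replicate block, that is with arrays of a mouse not paired, 2 genes in place of 4 were called higher on polysomes against whole muscle (8.43% of all probes in place of 13.1%), and 2 in place of 0 against monosomes (16.9% of probes in place of 0%). With normexp background correction 5 genes in place of 4 were called higher on polysomes against whole muscle (15.4% of probes). At the study's threshold, limma (5.23% of probes) and the methods' t-test (4.65%) each called 2 higher on polysomes against whole muscle. Against monosomes the number called higher, 0 in the fit reported, was 5 with 75th percentile scaling (15.6% of probes), normexp (16%) or the authors' table (15.7%), 4 with probes well above background on all 16 arrays (28%), 1 with the mean over probes (6.28%) and 6 with slide as a term (19%). WT mouse 2 alone had its polysome and monosome arrays on different slides, so that term leaves it out of the estimate. The number was 5 and 3 at the study's threshold by limma (13.8%) and the t-test (9.18%), and 0 to 6 on leaving out 1 mouse (0% to 31.9%). For monosomes, 1 and 2 genes were called lower at that threshold by limma (11.5% of probes) and the t-test (0.889%), and 0 to 2 on leaving out 1 mouse (0% to 21.1%). For monosomes against whole muscle, leaving out 1 mouse gave 0 to 1 called higher, 1 being without WT mouse 1 (11.2% of probes). The cause of these changes was not tested.

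Without a filter on dim probes Lgals3, at the same difference of 0.88 on polysomes against whole muscle, had a limma adjusted p of 0.0732. Some single-gene differences changed sign. H2-Aa on polysomes against whole muscle was -0.0585 with 75th percentile scaling, -0.0238 with the authors' table, and between -0.37 and 0.35 on leaving out 1 mouse. On monosomes against whole muscle, Cd74 was -0.0251 with 75th percentile scaling, Lgals3 was -0.20 without the replicate block, and with brightness as a term H2-Aa was 0.0152, H2-Ab1 0.12 and Lyz2 0.15. Cd68 on polysomes against monosomes was -0.14 with brightness as a term. Without WT mouse 1, Csf1r (0.13), H2-Aa (0.31), H2-Ab1 (0.15), Lyz2 (0.23) and C1qb (0.22) on monosomes against whole muscle and Cd68 on polysomes against monosomes (-0.17) turned. Leaving out WT mouse 2 gave the other end of the range for each, -0.23, -1.63, -0.45, -1.58, -1.42 and 0.67 in that order. Cd74 on monosomes against whole muscle ran from -0.35 without WT mouse 2 to 0.65 without WT mouse 1. The order of mice, under 4 alternatives chosen after seeing the data, was held by 10 genes in whole muscle and 9 in polysomes each time, and under the 3 of them that held monosome arrays WT mouse 1 was highest there for 5 to 7.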
